A study of Mus musculus with 6 samples.

Results

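The genes described here are 9 genes of the RAS-MAPK pathway, taken by name from a table of 52636 genes. The 9 genes and the gene lists used below were chosen with earlier results of these data known. They are the RAS GTPases Hras and Nras, the kinases Braf and Map3k1, and 5 genes that the pathway switches on or that restrain it, namely Dusp4, Dusp6, Spry2, Spred1 and Etv4. All 9 had a row in the table and all 9 passed the filter on low counts. The table holds RNAseq counts from 3 biological replicates of J110 cells and 3 of SSM3 cells, both cultured mouse mammary tumour lines used as syngeneic models of breast cancer. The mice behind the J110 line had an AIB1 transgene, a cDNA driven by the MMTV LTR, and SSM3 cells came from mammary tumours of gene-deficient mice on the 129SvEv background. The cells were untreated and were taken below full confluency. Serum, supplements and the CO2 level of the culture differed between the lines, so a difference between the lines and one between their media cannot be told apart. Each line is a single cell line, and its replicates are cultures of it and not separate tumours.

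As background, RAS proteins are molecular switches that receptor tyrosine kinases turn on through exchange factors such as SOS1 and turn off through GTPase-activating proteins. Active RAS recruits RAF kinases such as BRAF, which activate MEK and then ERK. ERK induces its own brakes, among them dual-specificity phosphatases (DUSPs), which remove phosphate from MAP kinases, and Sprouty and Spred proteins, which act upstream near RAS and RAF. Transcripts of these brakes are often read as a measure of ERK output, and in the mammary epithelium the pathway carries signals of EGF and FGF family ligands. Only RNA was measured here, so phosphorylation of MEK or ERK is not among the data.

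Total counts ranged from 4200785 to 5416305 per library. Values are given as CPM, the counts of each library scaled to a common total by the TMM method, with counts where they are low. The libraries carry tags from transcript 3′ ends, so a gene's CPM is compared between lines and not with that of another gene. Of 5 epithelial markers, Epcam stood at 0.681 ± 0.681 CPM in J110 against 507 ± 24.8 CPM in SSM3 (mean ± SD, n = 3). Cdh1 stood at 4.02 ± 1.83 and 1374 ± 47.8 CPM, and Krt19 at 18.6 ± 9.83 and 7412 ± 363 CPM. Krt8 and Krt18 were abundant in both lines, Krt8 higher in SSM3 (1275 ± 37.9 and 2270 ± 202 CPM) and Krt18 lower (1430 ± 18.1 and 970 ± 37.3 CPM). Vim, a mesenchymal marker, stood at 5140 ± 273 CPM in J110 against 9.61 ± 8.04 CPM in SSM3. Leukocyte markers summed to 14.8 to 23.3 CPM in J110 libraries, most of it Cd68, and to 1.19 to 2.004 CPM in SSM3 libraries, with Ptprc at no more than 2 counts in any library. Of the 4 endothelial markers, Cdh5 stood at 165 ± 11.8 CPM in J110, where Tie1 had no count. Of 6 fibroblast markers Dcn alone was abundant, at 1412 ± 72.4 CPM in SSM3, where Col1a1, Col1a2, Col3a1 and Lum had no count. Ncoa3, the gene of AIB1, stood at 21.2 ± 0.166 CPM in J110, the line with the transgene, and was higher in SSM3, at 39.9 ± 2.65 CPM (log2 fold change 0.91, adjusted p = 2.94e-06, edgeR). Its 3′ end overlaps that of Sulf2 on the opposite strand, which had more counts in every library, with 356, 337 and 355 in J110 and 991, 960 and 1021 in SSM3, so the value is uncertain. The labels do not give the 3′ end of the transgene either, and this gene does not check the identity of a library. J110 replicate 3 and SSM3 replicate 2 stood apart in 1 respect, since genes abundant in the opposite line were counted there at 0.25% and 0.363% of that line's level, against at most 0.0839% in any other library. Without both of these libraries, an alternative chosen after seeing the data, all 9 genes were still called in the same direction. The part of the cell type markers in the results below was not tested. In bulk RNA, a lower value from fewer cells of a kind and one from less RNA per cell cannot be told apart.

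Every one of the 9 genes differed between the lines, with Dusp6 10.7-fold and Spry2 7.84-fold lower in SSM3 and Hras the gene that stood highest in SSM3 relative to J110. Hras, Braf, Spred1 and Dusp4 were higher in SSM3, and Nras, Etv4, Map3k1, Spry2 and Dusp6 were lower. The threshold was an adjusted p of 0.05 from edgeR's quasi-likelihood test with Benjamini-Hochberg adjustment over all 12284 genes tested. At that threshold 77.9% of all genes were called, 38.6% higher and 39.2% lower in SSM3, so 9 of 9 genes called is not far from the background of these lines. For each of the 9 genes the J110 and SSM3 values were fully separated, as they were for 79.6% of all genes tested. Of the 9, Dusp6 and Spry2 were called with at least a 4-fold change, beside 21.7% of all genes in either direction, and 11.7% of all genes were called at least 4-fold lower in SSM3. The median log2 fold change, SSM3 against J110, was -0.48 over the 9 genes and -0.014 over all genes tested.

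**Figure D1:**
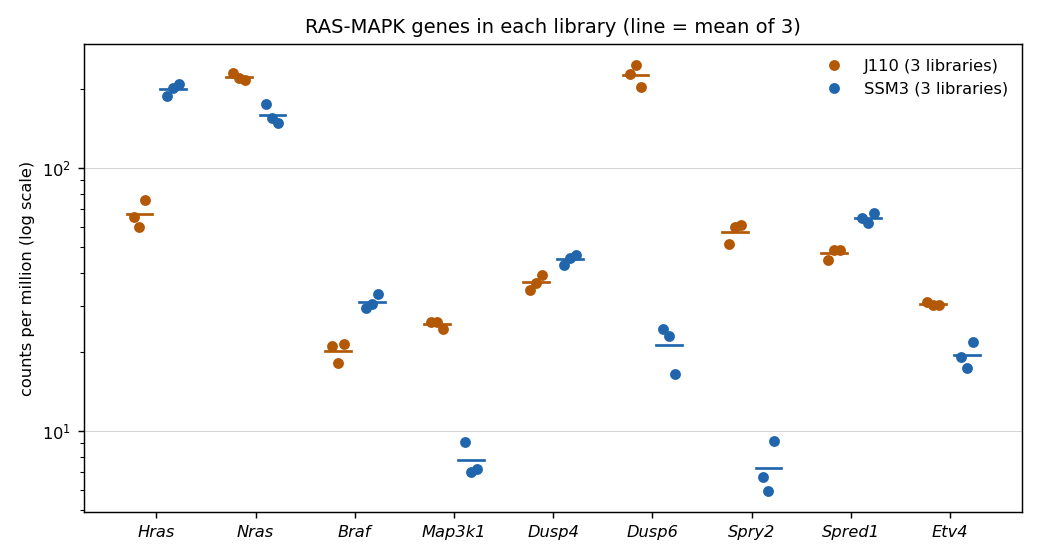
CPM (log scale) of the 9 RAS-MAPK genes in each of 3 J110 libraries (orange) and 3 SSM3 libraries (blue), with a line at the mean of each. The colours separate completely for every gene, by the widest margin for Dusp6, at 203 to 247 CPM in J110 against 16.5 to 24.5 CPM in SSM3.

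Among the RAS GTPases, Hras (ENSMUSG00000025499, chromosome 7 of mm10 from 141189105 to 141194005, reverse strand) stood at 65.5, 59.9 and 75.5 CPM in J110 against 187.9, 203 and 209 CPM in SSM3. Every SSM3 library lay above 180 CPM and every J110 library below 80 CPM. The log2 fold change was 1.58 (standard error, SE, 0.093, 2.99-fold, adjusted p = 1.54e-10, edgeR). Nras (ENSMUSG00000027852, chromosome 3 from 103058285 to 103067914, forward strand) went the other way, with 231, 220.3 and 218 CPM in J110 against 175, 156 and 149 CPM in SSM3. The gap between the lowest J110 library and the highest SSM3 library was small against that of Hras, and the log2 fold change was -0.48 (SE 0.079, 1.39-fold lower, adjusted p = 3.78e-05, edgeR).

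The list of RAS GTPases holds further genes, some of them wider apart between the lines than Hras. Mras, a relative of RAS that joins SHOC2 in activating RAF, stood at 23.6 ± 2.42 CPM in J110 against 137 ± 6.68 CPM in SSM3 (mean ± SD, n = 3), for a log2 fold change of 2.53 ± 0.10 (SE, edgeR adjusted p = 7.72e-13). Rras2, which encodes the RAS relative TC21, stood at 143 ± 12.1 CPM in J110 against 39.7 ± 1.82 CPM in SSM3, for a log2 fold change of -1.85 ± 0.094 (SE, edgeR adjusted p = 2.32e-11). Rras, a relative of RAS with a part in adhesion, had a log2 fold change of 1.10. With Hras and Nras, 3 of 6 RAS GTPases were higher in SSM3 and 3 were lower.

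The balance of Hras and Nras was examined within each library, where a ratio of 2 genes does not depend on scaling. The ratio of Hras to Nras counts was 0.285, 0.273 and 0.348 in J110 libraries and 1.07, 1.299 and 1.41 in SSM3 libraries. Nras had more counts than Hras in each J110 library and fewer in each SSM3 library, although tags per transcript may differ between the genes. The log2 ratio was -1.74 ± 0.19 in J110 and 0.32 ± 0.20 in SSM3 (mean ± SD, n = 3), a difference of 2.06 (exact permutation test, two-sided, p = 0.1, and no smaller value can be had with 3 libraries against 3).

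Of the kinases, Braf (ENSMUSG00000002413, chromosome 6 from 39603237 to 39725463, reverse strand), which relays the signal from RAS to MEK, stood at 21.01, 18.2 and 21.5 CPM in J110 against 29.4, 30.4 and 33.2 CPM in SSM3. All SSM3 libraries were above all J110 libraries, by a log2 fold change of 0.62 ± 0.13 (SE, edgeR adjusted p = 4.28e-04). This value is uncertain, since the last 146 bases of Braf (chr6:39603237-39603382) are also the end of Ndufb2 on the opposite strand, and the strand setting of the counting is not given in the sources used here. Ndufb2, a subunit gene of respiratory complex I, had 501, 444 and 414 counts in J110 against 1217, 1345 and 1485 counts in SSM3. Braf itself had 109, 92 and 103 counts in J110 and 132, 143 and 167 in SSM3, fewer than Ndufb2 in every library. Its part in the Braf value was not tested.

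Map3k1 (ENSMUSG00000021754, chromosome 13 from 111746428 to 111808993, reverse strand) encodes MEKK1, a kinase with a ubiquitin ligase domain that feeds mainly the JNK branch. It stood at 26.0, 26.1 and 24.4 CPM in J110 against 9.13, 7.01 and 7.16 CPM in SSM3. The J110 libraries lay close together and well above the SSM3 libraries, with a log2 fold change of -1.72 (SE 0.16, 3.29-fold lower in SSM3, adjusted p = 5.73e-08, edgeR).

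The dual-specificity phosphatases split. Dusp6 (ENSMUSG00000019960, chromosome 10 from 99263231 to 99267489, forward strand) encodes a cytoplasmic phosphatase selective for ERK. It stood at 229, 247 and 203 CPM in J110 against 24.5, 22.9 and 16.5 CPM in SSM3. Every J110 library was far above every SSM3 library, and the log2 fold change was -3.41 (SE 0.12, 10.7-fold lower in SSM3, adjusted p = 2.83e-13, edgeR). Dusp4 (ENSMUSG00000031530, chromosome 8 from 34807297 to 34819894, forward strand) encodes a nuclear phosphatase of ERK, JNK and p38. Its levels were 34.5, 36.8 and 39.4 CPM in J110 against 43.0, 45.4 and 47.0 CPM in SSM3. The libraries did not overlap, but the gap between the lines was no wider than the spread within J110. As to size, the log2 fold change of Dusp4 was 0.29 (SE 0.10, edgeR adjusted p = 0.0176), with a 95% interval from 0.071 to 0.51. DESeq2 gave Dusp4 an adjusted p of 0.0661, and edgeR gave 0.0898 without J110 replicate 1, 0.0535 without J110 replicate 2 and 0.0505 without SSM3 replicate 3, and the values lay between 5.82e-04 and 1 in all alternatives.

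The ratio of Dusp4 to Dusp6 counts was 0.152, 0.151 and 0.196 in J110 libraries and 1.74, 1.96 and 2.80 in SSM3 libraries. Dusp6 was the more counted of the pair in each J110 library and Dusp4 in each SSM3 library. On the log2 scale the ratio was -2.60 ± 0.21 in J110 and 1.09 ± 0.36 in SSM3 (mean ± SD, n = 3), a difference of 3.69 (exact permutation test, two-sided, p = 0.1).

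The Sprouty and Spred genes split in the same manner. Spry2 (ENSMUSG00000022114, chromosome 14 from 105891947 to 105896819, reverse strand) encodes a Sprouty protein that dampens RAS activation downstream of growth factor receptors. It stood at 51.5, 59.9 and 60.9 CPM in J110 against 6.68, 5.95 and 9.15 CPM in SSM3, which is 267, 303 and 292 counts against 30, 28 and 46. Every J110 library was above 50 CPM and every SSM3 library below 10 CPM. In SSM3 against J110, this was a log2 fold change of -2.97 (SE 0.16, 7.84-fold lower in SSM3, adjusted p = 3.74e-11, edgeR). Spred1 (ENSMUSG00000027351, chromosome 2 from 117121374 to 117182279, forward strand) encodes a protein that brings the RAS inactivator neurofibromin to the membrane. It stood at 44.9, 48.9 and 48.8 CPM in J110 against 64.8, 61.8 and 67.7 CPM in SSM3. Here the SSM3 libraries were the higher ones, by a log2 fold change of 0.45 ± 0.091 (SE, edgeR adjusted p = 2.96e-04).

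The ratio of Spry2 to Spred1 counts was 1.145, 1.22 and 1.25 in J110 libraries and 0.109, 0.102 and 0.140 in SSM3 libraries. The J110 libraries were thus within a narrow range above 1 and the SSM3 libraries well below it. The log2 ratio was 0.27 ± 0.065 in J110 and -3.11 ± 0.24 in SSM3 (mean ± SD, n = 3), a difference of -3.37 (exact permutation test, two-sided, p = 0.1).

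**Figure D2:**
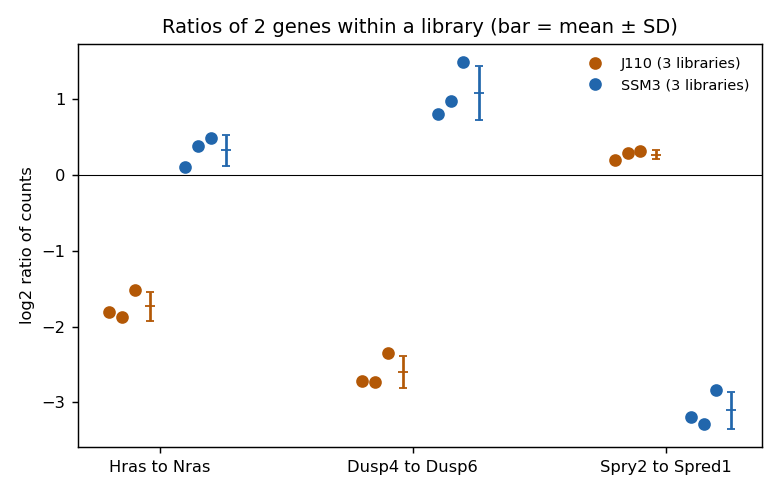
The log2 ratio of the counts of 2 genes within each library for 3 pairs, in 3 J110 libraries (orange) and 3 SSM3 libraries (blue), with the mean ± SD beside the points. Each pair changes sides of 0, with Hras to Nras and Dusp4 to Dusp6 below 0 in J110 and above it in SSM3, and Spry2 to Spred1 above 0 in J110 and below it in SSM3.

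Etv4 (ENSMUSG00000017724, chromosome 11 from 101769742 to 101785371, reverse strand) encodes a PEA3 family ETS factor that ERK signalling induces and that is known from mammary tumours. It stood at 31.0, 30.3 and 30.3 CPM in J110 against 19.2, 17.4 and 21.9 CPM in SSM3. The J110 libraries were almost equal, and all were above the SSM3 libraries. Etv4 had a log2 fold change of -0.64 (SE 0.13, 1.56-fold lower in SSM3, adjusted p = 3.20e-04, edgeR).

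**Figure D3:**
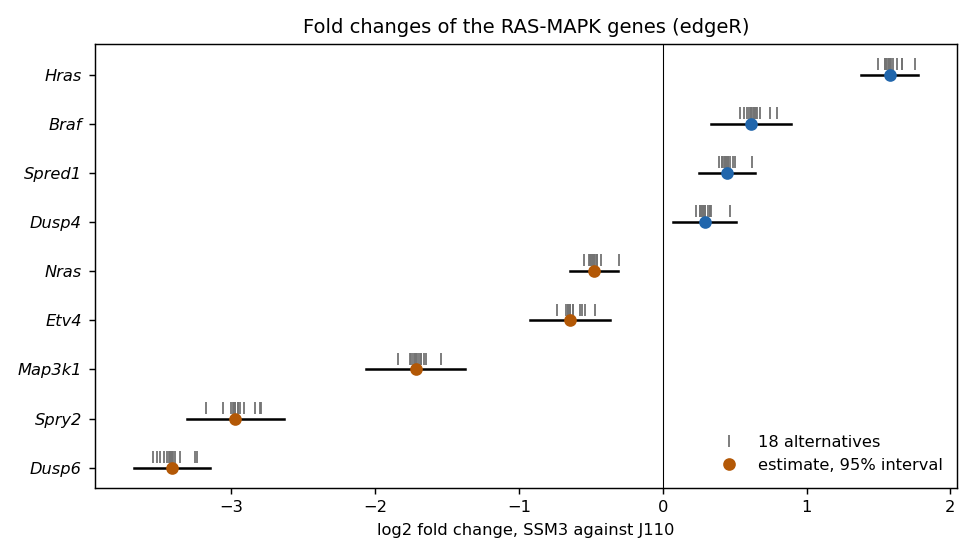
The log2 fold change of each gene, SSM3 against J110, from edgeR (point) with its 95% interval (line), and the values under 18 alternatives to the processing (grey ticks). Points run from -3.41 for Dusp6 to 1.58 for Hras, and no tick lies on the other side of 0 from its point.

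To set the 9 genes in their pathway, 88 genes were listed under 10 roles, the 9 included. Earlier results of these data were known when the lists were made, so their counts and medians are descriptive only. Of the 87 with a row in the table, 81 could be tested, and 69 of them were called, 24 higher and 45 lower in SSM3. That is 85.2% of those tested, beside 77.9% of all genes. The median log2 fold change was -0.41, beside -0.014 over all genes. Of the 72 tested genes that are not among the 9, 20 were higher and 40 lower in SSM3, which is 83.3% called. The counts by role below are of few genes each and stand beside the 38.6% of all genes called higher and the 39.2% called lower.

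Upstream of RAS, exchange factors and adaptors differed in both directions, 3 higher and 6 lower of 10 tested, with a median of -0.82. Rasgrf1, a calcium-responsive RAS exchange factor known mainly from neurons, had no count in J110 and 532, 716 and 720 counts in SSM3, which made it at least 220.3-fold higher there against a floor of 3 counts per library. Gab1, a docking protein for receptors, stood at 2.91 ± 0.694 CPM in J110 against 21.5 ± 2.83 CPM in SSM3 (mean ± SD, n = 3). Rasgrp3, another exchange factor, had 70, 50 and 39 counts in J110 against 3 in each SSM3 library, a ratio of 16.7 (95% counting interval 8.59 to 37.2). Sos1, the general RAS exchange factor, had a log2 fold change of -1.51 (SE 0.17) and Frs2, the adaptor of FGF receptors, one of -1.28 (SE 0.19), both lower in SSM3 (adjusted p = 4.88e-07 and 1.01e-05, edgeR).

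Of the RAS GTPase-activating proteins, which switch RAS off, 5 of 6 tested were lower in SSM3 and none was higher, with a median log2 fold change of -1.36. That is 83.3% called, beside 77.9% of all genes called in either direction and 39.2% of all genes called lower. Rasa3 stood at 83.0 ± 12.3 CPM in J110 against 3.54 ± 1.17 CPM in SSM3 and Rasal2 at 47.9 ± 5.78 and 8.64 ± 0.809 CPM (mean ± SD, n = 3), log2 fold changes of -4.53 and -2.47 (adjusted p = 1.19e-12 and 2.15e-10, edgeR). Rasal2 shares exons with 2810025M15Rik on the opposite strand, which had more counts than Rasal2 in every library, so its value is uncertain.

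Among the RAF kinases and scaffolds, 1 of 8 tested genes was higher in SSM3, Braf, and 5 were lower, with a median of -0.68. The scaffold gene Iqgap1 stood at 430 ± 7.45 CPM in J110 against 199 ± 3.16 CPM in SSM3 (mean ± SD, n = 3). Ksr1, a scaffold for RAF, MEK and ERK, had 33, 26 and 37 counts in J110 against 2, 1 and 2 in SSM3, a ratio of 18.2 (95% counting interval 7.52 to 57.2). Of the other MAP kinase kinase kinases, 4 of 8 with Map3k1 included were higher and 3 were lower in SSM3, with a median of 0.33. The 2 genes furthest from 0 in each direction were Map3k11 and Map3k3, with log2 fold changes of 1.45 and 0.67, and Map3k1 and Map3k2, with -1.72 and -1.42. The value of Map3k11 is uncertain, since it shares 89 exon bases with Pcnx3 on the opposite strand, which had more counts than Map3k11 in every library, with 113, 89 and 83 in J110 and 154, 175 and 207 in SSM3.

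All 9 genes of MEK, ERK and the kinases below ERK were called, 2 higher and 7 lower in SSM3, with a median of -0.43. Map2k1, which encodes MEK1, stood at 182 ± 12.8 CPM in J110 against 53.3 ± 9.37 CPM in SSM3 (mean ± SD, n = 3), for a log2 fold change of -1.78 ± 0.11 (SE, edgeR adjusted p = 3.38e-10). Mapk3, which encodes ERK1, was higher in SSM3, at 187 ± 11.7 and 299 ± 15.3 CPM. The RSK kinase genes differed in direction, since Rps6ka1 had a log2 fold change of 1.12 and Rps6ka2 one of -5.29 (adjusted p = 9.35e-07 and 1.49e-13, edgeR), the second with 369, 350 and 290 counts in J110 against 8, 6 and 10 in SSM3. In the JNK and p38 branch 3 of 7 genes were called, the smallest share of the 10 roles. They were Map2k7 and Map2k4, kinases of JNK, with log2 fold changes of 1.74 and 0.39, and Map2k3, a kinase of p38, with -0.60. The 95% intervals of Mapk8, Mapk9 and Mapk14 lay between -0.29 and 0.34.

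**Figure D4:**
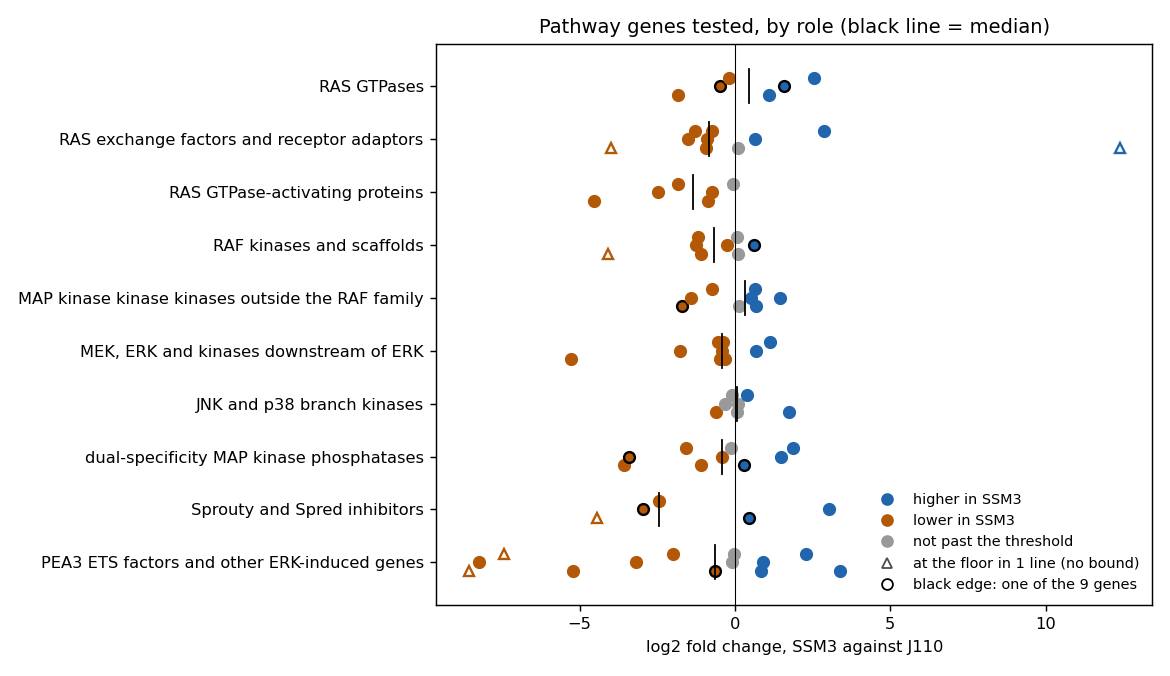
The log2 fold change, SSM3 against J110, of each tested pathway gene, by role, with a black line at the median of the role. Blue points are higher and orange points lower in SSM3, grey points are not past the threshold, and open triangles are genes at the floor in one line, whose fitted values are no bounds. The medians run from -2.46 for the Sprouty and Spred inhibitors to 0.46 for the RAS GTPases.

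The inhibitor families around the 9 genes held members at both ends. Of 9 dual-specificity phosphatases tested, 3 were higher and 5 lower in SSM3, with a median of -0.41. Dusp5, a nuclear phosphatase of ERK, was close to Dusp6, at 59.4 ± 6.46 CPM in J110 against 4.89 ± 1.13 CPM in SSM3 (mean ± SD, n = 3), for a log2 fold change of -3.59 ± 0.17 (SE, edgeR adjusted p = 7.00e-12). Dusp16, which acts on JNK and p38, and Dusp9 had log2 fold changes of 1.86 and 1.49 (adjusted p = 2.98e-11 and 2.36e-08, edgeR). Dusp2 could not be tested, with 9, 1 and 8 counts in J110 against none in SSM3. Of 5 Sprouty and Spred genes tested, Spry1 and Spred1 were higher in SSM3 and Spry2, Spred2 and Spry4 lower. Spry1 stood at 3.41 ± 0.855 CPM in J110 against 27.9 ± 3.42 CPM in SSM3, for a log2 fold change of 3.03 ± 0.20 (SE, edgeR adjusted p = 7.79e-10), so that Spry1 and Spry2, relatives with like function, lay in opposite directions with a similar size. Spred2 stood at 30.2 ± 2.93 and 5.51 ± 0.653 CPM. Spry4 had 19, 23 and 12 counts in J110 against 0, 2 and 0 in SSM3, a ratio of 25.6 (95% counting interval 6.74 to 216), and its log2 fold change went from -4.44 to -7.15 without SSM3 replicate 2. Spred3 was at 3 counts in every SSM3 library and at 18, 15 and 10 in J110.

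A 10-gene list in common use as a readout of MAPK output, also chosen with earlier results known, holds 4 of the 9 genes, Dusp4, Dusp6, Spry2 and Etv4. Of the 10, 7 were lower and 1 was higher in SSM3, which is 80.0% called beside 77.9% of all genes, with a median log2 fold change of -3.08 beside -0.014. The 6 that are not among the 9 genes had a median of -3.82, with 4 lower and 2 not past the threshold. That is 66.7% called, below the 77.9% of all genes. Ccnd1, which encodes cyclin D1, stood at 1882 ± 168 CPM in J110 against 206 ± 17.2 CPM in SSM3 (mean ± SD, n = 3), and its overlapping opposite-strand gene LTO1 at 7330, 6508 and 6840 counts in J110 against 877, 854 and 909 in SSM3. The ephrin receptor genes were near absent from SSM3, with Epha2 at 90.6 ± 9.94 and 2.40 ± 0.592 CPM. Epha4 had 610, 542 and 601 counts in J110 against 1, 3 and 0 in SSM3, a ratio of 415 (95% counting interval 162 to 1524), and its log2 fold change of -8.57 was -9.80 without SSM3 replicate 2 and -7.98 without SSM3 replicate 3. Phlda1 and Etv5 were not past the threshold, with log2 fold changes of -0.086 (95% interval -0.25 to 0.084) and -0.020 (95% interval -0.37 to 0.33), and both lay above 0 with library size scaling only. Within the PEA3 factors Etv4 was thus lower in SSM3 by a moderate amount, Etv5 was not distinguishable, and Etv1 had 80, 81 and 91 counts in J110 against 0, 0 and 1 in SSM3.

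**Figure D5:**
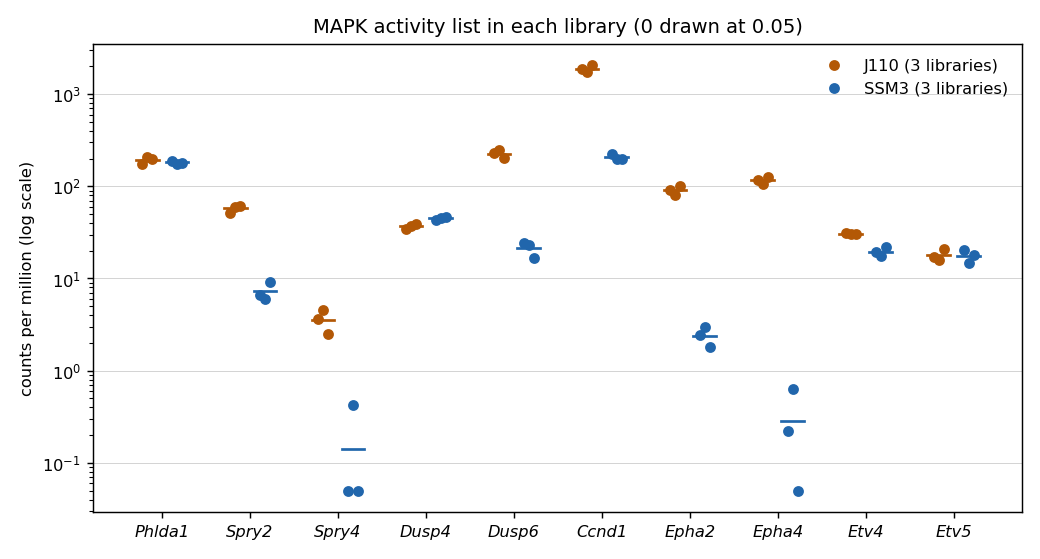
CPM (log scale) of the 10 genes of the MAPK activity list in each of 3 J110 libraries (orange) and 3 SSM3 libraries (blue), with a line at the mean and a count of 0 drawn at 0.05. Dusp4 is the one gene with all SSM3 libraries above all J110 libraries, Phlda1 and Etv5 overlap, and the other 7 are lower in SSM3.

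Of 7 further ERK-induced genes outside the activity list, Fos, Ier3, Egr1 and Maff were higher in SSM3 and Fosl1, Etv1 and Myc were lower. With the PEA3 factors and other genes that the activity list also holds, this role counted 4 higher and 7 lower of 13 tested, with a median of -0.64. The immediate early gene Fos stood at 4.65 ± 0.0818 CPM in J110 against 49.0 ± 8.54 CPM in SSM3 (mean ± SD, n = 3), for a log2 fold change of 3.39 ± 0.18 (SE, edgeR adjusted p = 3.21e-11). Ier3 was also higher in SSM3, at 136 ± 14.7 and 658 ± 58.4 CPM. Fosl1, which encodes the FOS relative FRA1, had 607, 612 and 491 counts in J110 against 0, 5 and 0 in SSM3, and it shares exons with Ccdc85b on the opposite strand, which had at most 4 counts in any library. Its log2 fold change of -8.23 became -12.12 without SSM3 replicate 2 and -7.64 without SSM3 replicate 3. Fos and Fosl1 thus differed between the lines in opposite directions.

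The promoter windows of 7 of the 9 genes were matched in RefSeq (GRCm38.p6), each from 250 bases before to 50 bases after the start that RefSeq gives the gene. The RefSeq start of Spred1 lies upstream of the start given above, so its window is not described. They were searched on both strands for a CRE (TGACGTCA), an AP-1 site (TGANTCA), an ETS site of the form CCGGAA, a GC box (GGGCGG) and the CArG box of serum response factor. Shorter ETS matches such as GGAA were not counted. Of 32851 windows in the table, 1.79% hold the CRE, 7.81% the AP-1 site, 14.9% the CCGGAA site, 35.7% the GC box and 1.63% the CArG box. The windows of Dusp6 and Spry2 are shown because these genes were both at least 4-fold lower in SSM3, and those of Hras and Braf because they were the higher ones upstream. Dusp6 is at chr10:99262981-99263280 on the forward strand, and Spry2 at chr14:105896770-105897069, Hras at chr7:141193955-141194254 and Braf at chr6:39725414-39725713 are on the reverse strand. Capitals mark every match to these motifs on either strand, and each line reads 5′ to 3′ on the strand of the gene.
Dusp6: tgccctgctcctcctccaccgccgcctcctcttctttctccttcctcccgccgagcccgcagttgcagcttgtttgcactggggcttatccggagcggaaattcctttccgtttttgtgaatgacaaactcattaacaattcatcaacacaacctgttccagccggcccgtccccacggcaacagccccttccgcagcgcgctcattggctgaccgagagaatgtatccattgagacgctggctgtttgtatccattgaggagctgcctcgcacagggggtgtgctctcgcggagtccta
Spry2: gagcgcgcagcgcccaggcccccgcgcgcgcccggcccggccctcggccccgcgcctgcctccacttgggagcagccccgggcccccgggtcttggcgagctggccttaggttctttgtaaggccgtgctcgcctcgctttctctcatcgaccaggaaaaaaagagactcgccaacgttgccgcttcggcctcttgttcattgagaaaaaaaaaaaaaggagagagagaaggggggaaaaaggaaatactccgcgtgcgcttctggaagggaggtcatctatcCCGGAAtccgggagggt
Hras: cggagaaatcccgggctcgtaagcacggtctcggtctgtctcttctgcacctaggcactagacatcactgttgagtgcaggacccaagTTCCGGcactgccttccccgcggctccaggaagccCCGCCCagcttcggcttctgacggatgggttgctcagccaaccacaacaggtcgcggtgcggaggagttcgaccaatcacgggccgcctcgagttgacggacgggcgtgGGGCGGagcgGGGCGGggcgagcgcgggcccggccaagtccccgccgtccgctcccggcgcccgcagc
Braf: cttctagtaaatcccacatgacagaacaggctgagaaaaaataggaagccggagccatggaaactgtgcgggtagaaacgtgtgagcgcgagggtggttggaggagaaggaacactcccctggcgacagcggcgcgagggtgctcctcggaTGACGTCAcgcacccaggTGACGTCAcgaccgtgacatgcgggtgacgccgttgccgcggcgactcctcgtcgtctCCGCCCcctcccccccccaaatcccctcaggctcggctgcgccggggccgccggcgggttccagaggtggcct

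Dusp6 held none of the motifs in the forms searched and Spry2 held 1 CCGGAA site, which starts at position 34 after the start site. Hras held 1 CCGGAA site at position -162 and 3 GC boxes, and Braf held the CRE at positions -99 and -81 and 1 GC box. The windows of Nras and Map3k1 held GC boxes alone, 3 and 6 of them, some of them overlapping. GC boxes were thus present in the windows of genes higher and lower in SSM3. A match is a run of letters and no measured binding site.

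The genes with profiles most like those of Hras and Dusp6, the members of the set with the highest and the lowest log2 fold change, were sought by the distance between centred log2 CPM profiles over the 6 libraries, among 9062 other genes with at least 10 CPM on average. Nearest to Hras were Mphosph6, Gpat4 and Tmem161a, with log2 fold changes of 1.54, 1.57 and 1.55 and distances of 0.085, 0.096 and 0.12. Nearest to Dusp6 were Akr1c13, Pxdn and Sh2d5, with log2 fold changes of -3.54, -3.80 and -3.85 and distances of 0.36, 0.38 and 0.39. The profiles have 6 points in 2 lines, so likeness here says little beyond a similar difference between the lines.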

How the data were processed

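RNA was sequenced from the 3′ ends of transcripts (QuantSeq) in 3 J110 and 3 SSM3 cultures. The authors trimmed reads with cutadapt 2.1, mapped them to mm10 with HISAT2 2.0.4 and counted them per gene with featureCounts of Subread 2.0.0. The deposited values are raw counts of 52636 Ensembl genes, not normalised. The strand setting and gene annotation of the counting are not given in the sources used here. Reads without molecular identifiers are not independent molecules, so counting intervals cover counting error only.

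Of the identifiers, 52403 (99.6%) matched GENCODE M21 (GRCm38), the source of symbols, coordinates and exon overlaps. Library sizes were sums over all genes, from 4200785 to 5416305, and a count of 3 was between 0.578 and 0.668 CPM. In edgeR 4.0.16 (R 4.3.3, limma 3.58.1), filterByExpr kept 12284 genes, TMM gave the scaling, and the lines were compared by quasi-likelihood F test, with log2 fold changes as SSM3 against J110. Calls were made at a Benjamini-Hochberg adjusted p of 0.05. Each SE was derived from the F statistic, as the absolute log2 fold change over its square root. The biological coefficient of variation was 8.3%. Gene models of the ribosomal RNA locus held from 15.1% to 17.2% of J110 counts and from 0.779% to 1.27% of SSM3 counts. Ratios within a library used a prior count of 2. Counts were simulated with the library sizes and dispersions of this comparison over 12284 genes, of which 11945 passed the filter. There, 173 of 200 changed genes (86.5%) were recovered and 11 of 184 called genes were unchanged. Only those 200 genes were changed, in equal numbers up and down, whereas 77.9% of genes were called between the lines. The simulation therefore does not test the scaling or the error rates at such a share of changed genes.

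The 9 genes and the lists were chosen with earlier results of these data known. Named beside the 9 genes are, in each role list, up to 2 called genes each way by size of log2 fold change (10 CPM or more on average), genes that never exceed 3 counts in one line but do in the other, the MAPK activity list, and the 3 nearest profiles of 2 genes. Rras, Egr1, Maff, Myc, Mapk8, Mapk9, Mapk14, Ndufb2, the overlap partners and Ncoa3 were named after their values were seen. Alternatives were DESeq2 1.42.0, limma-voom, other scalings, filters, depth and fold thresholds, a replicate block, and leaving out libraries. Replicates of one line differed by more than sampling noise (chi-square per degree of freedom from 2.21 to 5.62). The study calls them biological replicates. The paper's other cell lines and assays were not analysed here, and some genes of the lists are not reported here by name.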

Additional observations from a re-analysis of the deposited data

How the results depend on the processing

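For the 9 genes, no alternative changed the direction of a log2 fold change, and apart from Dusp4 a call was lost only in the test for changes beyond 2-fold. With glmTreat against a 2-fold threshold, 4 of the 9 genes (Hras, Map3k1, Dusp6 and Spry2), 35 pathway genes and 4272 genes in all were called. Dusp4 also lost its call with DESeq2 and without J110 replicate 1, J110 replicate 2 or SSM3 replicate 3. Requiring at least 10 counts in every library left 7 genes of the activity list, 5 of them called, since genes near absent from one line drop out. For the genes called between the lines, leaving out each library in turn gave from 8 to 9 of the 9 genes called, from 67 to 69 pathway genes, from 7 to 8 activity list genes and from 9275 to 9572 genes in all. The differences in log2 ratio then ranged from 1.97 to 2.169 for Hras to Nras, from 3.49 to 3.83 for Dusp4 to Dusp6 and from -3.51 to -3.28 for Spry2 to Spred1. Without J110 replicate 3 and SSM3 replicate 2 together, an alternative chosen after seeing the data, 9 of 9 were called.

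Library size scaling without TMM moved the median of all genes from -0.014 to 0.16, a shift that applies to every gene. Of all genes, 5373 were then called higher and 4140 lower, in place of 4746 and 4820, and 25 pathway genes were called higher and 39 lower, in place of 24 and 45. It put Phlda1 at 0.091 and Etv5 at 0.16, both of which were not called. The log2 fold change of Etv5 was also above 0 with a filter of at least 1 count (3.24e-04), with libraries thinned to the smallest total (0.016), without J110 replicate 3 (0.085), without SSM3 replicate 2 (0.098) and without both (0.21), and ranged from -0.13 to 0.098 when each library was left out in turn. The cause was not tested.

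Replicate numbers are shared between the lines, but the labels do not say that a number marks a shared day. The correlation of deviations between libraries with the same number was 0.028, 0.031 and 0.063, so the numbers were not treated as pairs, although each library correlated best with its own number. With the replicate block, 9 of the 9 genes, 68 pathway genes and 8 activity list genes were called, and the genes called between the lines numbered 9481. At these depths Spry4, Dusp2 and Spred3 rest on few counts.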
